A study of Mus musculus with 8 samples.

Results

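The genes described here are the feedback and output genes of TGF-beta and BMP signalling: the inhibitors of differentiation Id1, Id2, Id3 and Id4, the inhibitory Smads Smad6 and Smad7, the corepressors Ski, Skil and Tgif1, and the signal transducer Smad3. They were taken by name as all non-control probes whose gene name in the array files is one of these 10, of 35715 gene names in all, which gave 12 of the 55681 probes, with 2 probes each for Smad3 and Skil. NIH3T3 cells, an immortalised mouse embryonic fibroblast line, were grown in 10% newborn bovine serum, kept in 0.5% serum for 24 h, and then exposed to cordycepin and to fresh serum. Cordycepin is an adenosine analogue that lacks the 3′ hydroxyl group. The cordycepin plus serum group (3 arrays) had 20 µM cordycepin in DMSO for 90 min and then, as the paper describes it, serum for 30 min. The serum group (3 arrays) had DMSO vehicle at 0.1% in place of cordycepin and the same 30 min of serum. The no serum group (2 arrays) had no fresh serum. The label of the last group calls the cells serum starved and names no vehicle. All groups were therefore serum-starved cells of 1 established line, and because no array held cells given cordycepin without serum, an effect of cordycepin on unstimulated cells was not measured. The study states independent triplicates for the treated groups, but the labels do not tie arrays to cultures, so the p-values measure the spread between these arrays.

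TGF-beta and BMP ligands bind paired serine/threonine kinase receptors, which phosphorylate receptor-regulated Smads that then enter the nucleus with Smad4. The pathways are known for switching on their own brakes. Smad7 and Smad6 block the receptors and the receptor-regulated Smads, Skil (SnoN), Ski and Tgif1 bring corepressors to Smads on DNA, and the Id genes are classical immediate targets of BMP-activated Smads. Id proteins have a helix-loop-helix but no DNA-binding region, and they hold the bHLH activators of differentiation away from DNA. Several of these genes are also known to respond quickly to serum and to growth factors in fibroblasts.

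All values below are log2 of the background-corrected spot signal minus the 75th percentile of that array, so 0 is the level of a probe at that percentile. The percentile itself ranged from 302.2 to 692 signal units over the 8 arrays, 51.1 to 57.1% of probes were well above background, and no spot was saturated. Arrays of a group correlated with r of at least 0.992 across tested probes, against 0.965 to 0.976 between cordycepin and other arrays. All 8 arrays lay on 1 slide and in 1 scan. Of 10 fibroblast markers 9 (Col1a1, Vim and Pdgfrb among them, but not Fbln1) were above background on every array. Of 5 epithelial markers 0 were, although 3 of these (Epcam, Krt8 and Cldn4) were above background on at least 1 array. Of 4 haematopoietic markers 1 (Itgam) and of 4 endothelial markers 3 (Pecam1, Kdr and Tek) were also above background on every array. Ptprc and Cd52 were on at least 1 array but not on every array, and Laptm5 and Cdh5 were on none. Signal above background thus does not by itself tell these cell types apart, and the part of these markers in the results was not tested. All 12 probes of the 10 genes were well above background on all 8 arrays and all were among the 30859 probes tested. A probe was called at a limma adjusted p under 0.05 (Benjamini-Hochberg over all tested probes) and a log2 change of at least 1. Since each level is relative to its own array, a shift common to the bulk of the RNA is not visible in these values, and in bulk RNA fewer cells of a type and less RNA per cell cannot be told apart. The 3 comparisons share their arrays, so they are not independent of each other.

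The promoters of Id2, Id3 and Id4 are printed because these genes fell together with cordycepin, and Smad binding at Id promoters is the textbook route of their control. They are the 250 bases before the start site (RefSeq, GRCm38.p6, 5′ to 3′ on the strand of the gene), at chr12:25096093-25096342 (minus strand), chr4:136143572-136143821 (plus strand) and chr13:48260866-48261115 (plus strand). Capitals mark GGCGCC, the GC-rich Smad element of BMP targets.
Id2: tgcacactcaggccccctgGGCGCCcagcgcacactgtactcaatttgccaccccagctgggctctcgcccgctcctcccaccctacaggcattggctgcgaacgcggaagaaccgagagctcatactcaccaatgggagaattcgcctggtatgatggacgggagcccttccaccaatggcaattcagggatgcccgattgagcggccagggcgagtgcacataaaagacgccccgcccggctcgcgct
Id3: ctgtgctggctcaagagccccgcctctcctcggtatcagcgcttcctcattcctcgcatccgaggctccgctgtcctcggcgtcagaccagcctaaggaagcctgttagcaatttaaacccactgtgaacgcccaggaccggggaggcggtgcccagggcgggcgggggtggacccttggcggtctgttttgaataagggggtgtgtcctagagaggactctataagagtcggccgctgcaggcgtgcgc
Id4: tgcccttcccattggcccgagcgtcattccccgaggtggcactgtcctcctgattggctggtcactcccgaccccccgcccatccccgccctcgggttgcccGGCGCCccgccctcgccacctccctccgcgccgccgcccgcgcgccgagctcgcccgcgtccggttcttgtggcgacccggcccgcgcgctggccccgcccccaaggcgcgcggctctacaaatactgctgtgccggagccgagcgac
RefSeq promoters were matched for 7 of the 10 genes by symbol, namely Id2, Id3, Id4, Smad3, Smad6, Ski and Tgif1 (5 entries for Tgif1). The 11 entries, each reaching from 250 bases before to 50 bases after the start, were searched on both strands for GGCGCC, the palindromic Smad element GTCTAGAC, the cAMP response element TGACGTCA, the Egr site GCGGGGGCG and the CArG box of serum response factor. GGCGCC was found in Id2, at -231 to -226 from the start, in Id4, at -148 to -143, and in Ski, at -220 to -215, thus in 3 of 11 entries against 11.9% of all 32851 promoters. These 3 entries hold 63.3, 73.3 and 85.3% GC, and the share over all promoters was not matched for GC content. GTCTAGAC was found once, across the start site of Smad6 (-4 to 4), against 0.213% of all promoters. The cAMP response element, the Egr site and the CArG box, held by 1.79%, 2.91% and 1.63% of all promoters, were in 0 of the 11. Of the genes that hold a Smad element, Id2 and Id4 were called lower with cordycepin, and Ski and Smad6 were not called in any comparison. Of those that hold none in the window, Id3 was called in 2 comparisons and Tgif1 was called lower with cordycepin, while the lead probe of Smad3 was not called. Sequence outside the window was not searched, and whether any of these elements acts in these cells was not tested.

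Cordycepin lowered the RNA of most of these genes in serum-treated cells. Against serum alone, 6 of the 10 genes were called lower (Id1, Id2, Id3, Id4, Smad7 and Tgif1) and 0 higher, while 2.99% of all tested probes were called lower and 7.56% higher. By adjusted p alone Smad3 was added, making 7 of 10 against 7.71% of probes. Over all probes 2333 were called higher and 922 lower, and 1933 and 1305 with quantile normalisation. When the arrays were centred on the spike-in probes in place of the percentile, the calls of Id2, Id3 and Tgif1 were lost, with log2 changes of -1.08, -1.39 and -1.29 and limma adjusted p of 0.384, 0.111 and 0.17. The SE was then 0.53 for Id2 and for Id3, against 0.20 and 0.17 with the percentile. The fitted change was below 0 for all 10 genes on the lead probe, the brighter one where a gene has 2, with a median log2 change of -1.15 against 0.0850 over all tested probes; the sign of the smallest of these, Ski, turned under another background correction. For 8 of the 10, every cordycepin array lay below every serum array, which 13.9% of tested probes also showed; the exceptions were Ski and Skil.

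**Figure D1:**
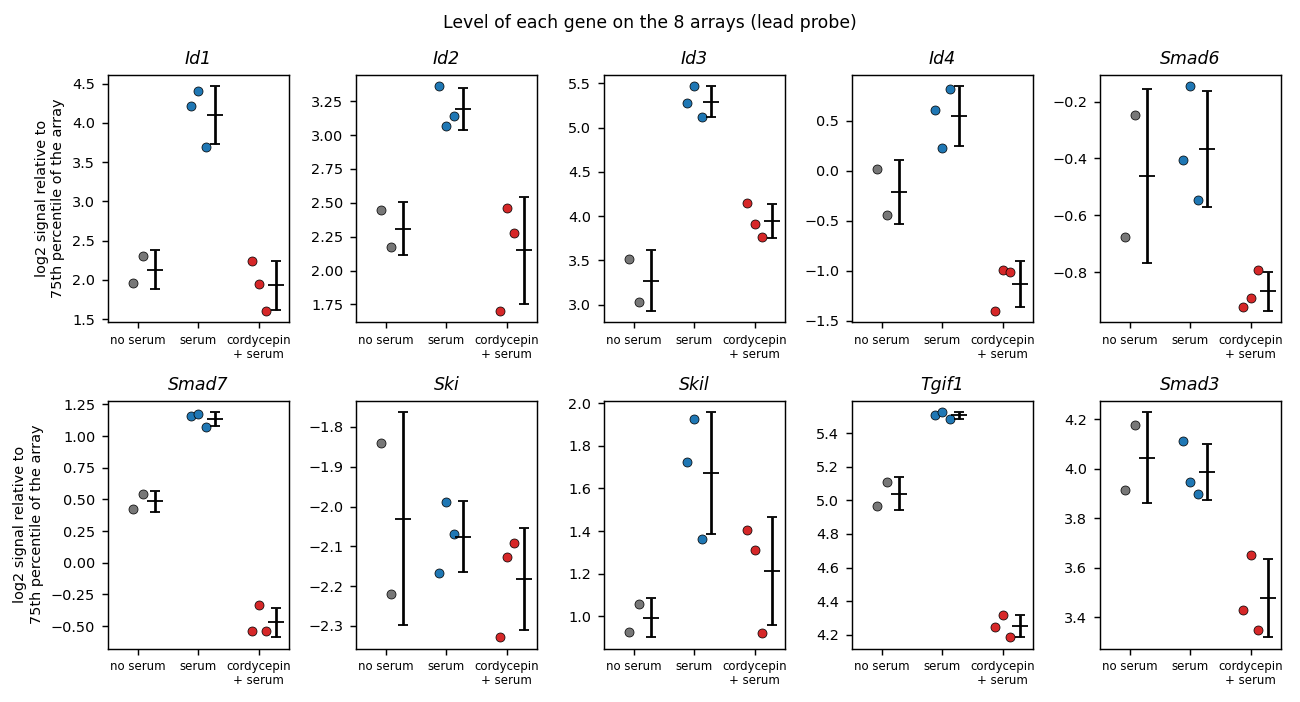
Log2 signal of each gene relative to the 75th percentile of the array, for the lead probe, on the 2 no serum arrays (grey), the 3 serum arrays (blue) and the 3 cordycepin plus serum arrays (red), with the mean and SD of each group beside the points and a separate scale in each panel. In 8 panels the 3 cordycepin arrays lie below the 3 serum arrays, and in those of Ski and Skil they overlap.

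Id1 changed most of the 10 with cordycepin. Its probe lies at chr2:152563083-152563142 (mm9, plus strand; no annotation of that build was used here, so exons and UTRs are not given). The Id1 level was 4.21, 4.41 and 3.69 on the serum arrays, 2.23, 1.94 and 1.60 on the cordycepin plus serum arrays, and 1.95 and 2.30 on the no serum arrays. The serum arrays stood above all others, and the cordycepin and no serum arrays overlapped. Id1 was 4.51-fold lower with cordycepin (log2 change -2.17 ± 0.23 SE, limma adjusted p = 0.000321), and only 0.318% of tested probes had a lower fitted change. Serum itself had raised Id1 3.93-fold (log2 change 1.97 ± 0.26, limma adjusted p = 0.00796), a call that was lost without the first no serum array (log2 change 1.80, limma adjusted p = 0.0717). Between cordycepin plus serum and no serum the log2 difference was -0.20, with a 95% interval from -0.79 to 0.39.

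Id3 is the other Id gene that serum raised past both thresholds. The array files give no genome position for its probe, which is therefore shown, in lower case and 5′ to 3′.
Id3 probe: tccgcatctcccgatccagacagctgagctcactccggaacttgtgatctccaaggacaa
It starts at base 338 of the transcript by the array annotation and 1 of its 3 forward frames has no stop codon. The 4 Id probes shared runs of at most 4 to 7 bases with each other, so they do not read the same stretch of related transcripts. The Id3 level was 5.28, 5.47 and 5.12 with serum, 4.14, 3.91 and 3.77 with cordycepin plus serum, and 3.51 and 3.03 without serum. The 3 groups did not overlap, and the cordycepin arrays lay between the others. Serum raised Id3 4.06-fold (log2 change 2.02 ± 0.19, limma adjusted p = 0.00167), and cordycepin lowered it 2.55-fold in serum (log2 change -1.35 ± 0.17, limma adjusted p = 0.000829). The remaining difference between cordycepin plus serum and no serum, 0.67 ± 0.19 on the log2 scale, had a limma adjusted p of 0.0516 and a 95% interval from 0.23 to 1.11.

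Id4 and Id2 fell with cordycepin, while their serum response did not pass the test. The Id4 probe lies at chr13:48358668-48358727 (mm9, plus strand). The Id4 level was 0.61, 0.22 and 0.81 with serum, -1.40, -0.99 and -1.01 with cordycepin plus serum, and 0.01 and -0.44 without serum. Every cordycepin array was below every other array. Id4 was 3.21-fold lower with cordycepin than with serum alone (log2 change -1.68 ± 0.20, limma adjusted p = 0.000625). Against no serum the log2 difference was -0.92 ± 0.23 with a limma adjusted p of 0.0282, short of the minimum fold. The serum response was 0.76 ± 0.23 on the log2 scale (limma adjusted p = 0.189).

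The Id2 probe lies at chr12:25778904-25778963 (mm9, minus strand). The Id2 level was 3.36, 3.07 and 3.14 with serum, 1.70, 2.47 and 2.28 with cordycepin plus serum, and 2.45 and 2.17 without serum. The serum arrays stood above the others and the cordycepin arrays surrounded those without serum. Id2 was 2.06-fold lower with cordycepin (log2 change -1.04 ± 0.20, limma adjusted p = 0.00804), just past the minimum fold. It fell short of that minimum without the first cordycepin array (log2 change -0.82) or without the first serum array (-0.96). The serum response of Id2 was 0.88 ± 0.23 on the log2 scale (limma adjusted p = 0.121).

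Of the inhibitory Smads, Smad7 fell and Smad6 did not pass the test. The Smad7 probe lies at chr18:75555371-75555430 (mm9, plus strand). Smad7, which blocks both TGF-beta and BMP receptors, had levels of 1.16, 1.18 and 1.07 with serum, -0.54, -0.34 and -0.54 with cordycepin plus serum, and 0.43 and 0.54 without serum. The 3 groups were far apart for their spread, with the cordycepin arrays lowest. Cordycepin lowered Smad7 3.04-fold in serum (log2 change -1.61 ± 0.11, limma adjusted p = 4.14e-05), the smallest adjusted p of the 10 genes. Smad7 was also lower with cordycepin and serum than without serum, by a log2 difference of -0.96 ± 0.12 (limma adjusted p = 0.0012), short of the minimum fold. Serum alone raised it by 0.65 ± 0.12 on the log2 scale with a limma adjusted p of 0.035, again short of that minimum.

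Smad6, which acts mainly on the BMP branch, was measured by a probe at chr9:63800980-63801039 (mm9, minus strand). Its level was -0.41, -0.14 and -0.55 with serum, -0.92, -0.89 and -0.79 with cordycepin plus serum, and -0.68 and -0.25 without serum. The cordycepin arrays were the lowest of the 8, by a narrow margin. The log2 difference from serum was -0.50 ± 0.15 (limma adjusted p = 0.0569, 95% interval from -0.86 to -0.15), and the serum response was 0.10 with an interval from -0.30 to 0.49.

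Among the corepressors, Tgif1 fell, and Skil and Ski were not called. Tgif1 is a homeodomain protein that recruits histone deacetylases to Smad complexes, and its probe lies at chr17:71193629-71193688 (mm9, minus strand). The Tgif1 level was 5.51, 5.52 and 5.49 with serum, 4.25, 4.32 and 4.19 with cordycepin plus serum, and 4.97 and 5.11 without serum. As for Smad7, the groups were apart and in the order serum, no serum, cordycepin plus serum. Tgif1 was 2.38-fold lower with cordycepin than with serum alone (log2 change -1.25 ± 0.10, limma adjusted p = 8.12e-05). It was also lower than without serum, by -0.79 ± 0.11 on the log2 scale (limma adjusted p = 0.00218), short of the minimum fold. The serum response, 0.47 ± 0.11, had a limma adjusted p of 0.0906.

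Skil, also called SnoN, was measured by a probe spotted 10 times at chr3:31021203-31021262 (mm9, plus strand), with a within-array SD of 0.0388 to 0.0990 on the log2 scale between the repeated spots. Its level was 1.72, 1.93 and 1.36 with serum, 1.40, 1.31 and 0.92 with cordycepin plus serum, and 0.93 and 1.06 without serum. The third serum array fell among the cordycepin arrays, and the third cordycepin array was the lowest of the 8, just under the no serum arrays. The log2 difference between cordycepin plus serum and serum was -0.46 ± 0.18 (limma adjusted p = 0.131, 95% interval from -0.88 to -0.04), and the serum response was 0.68 ± 0.21 (limma adjusted p = 0.2). The other Skil probe, at chr3:31016390-31016449 (mm9) and so nearer to the start of the transcript, gave -0.75 ± 0.30 and 0.68 ± 0.33 for the same differences, with limma adjusted p of 0.127 and 0.601. Its change with cordycepin was -0.39 without the second serum array, and it was called lower without the third (log2 change -1.02, limma adjusted p = 0.0423). Its serum arrays ranged from -1.82 to -0.57, wider than any other group of the 12 probes.

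Ski, the founding member of this corepressor family, differed least. Its probe lies at chr4:154528238-154528297 (mm9, minus strand). The Ski level was -2.17, -1.99 and -2.07 with serum, -2.33, -2.13 and -2.09 with cordycepin plus serum, and -1.84 and -2.22 without serum. All groups overlapped. The log2 difference between cordycepin plus serum and serum was -0.11, with a 95% interval from -0.42 to 0.21, so that a change past the minimum fold in either direction lies outside the interval.

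Smad3, the transducer of TGF-beta and activin, was not called on its lead probe and was called lower on its other probe. Both lie on the minus strand of chromosome 9 in mm9, the lead probe at chr9:63494574-63494633 and the other at chr9:63497492-63497551. The Smad3 level on the lead probe was 4.11, 3.95 and 3.90 with serum, 3.43, 3.65 and 3.35 with cordycepin plus serum, and 3.92 and 4.18 without serum. The cordycepin arrays were the lowest, and the serum and no serum arrays overlapped. The other probe was much dimmer, at -2.22, -1.89 and -2.14 with serum and -2.55 and -2.21 without serum. With cordycepin plus serum it read -3.50, -2.98 and -2.97, from signals of 26.8, 62.9 and 50.7 units. The log2 change with cordycepin was -0.51 ± 0.13 (limma adjusted p = 0.029) on the lead probe and -1.06 ± 0.18 (limma adjusted p = 0.00411) on the other, where it became -0.50 with normexp background correction (limma adjusted p = 0.0217) and fell under the minimum fold with the array row as a block (-0.98), without the first cordycepin array (-0.89) and without the second serum array (-0.97). With spike-in centring it was -1.11 with a limma adjusted p of 0.357. These changes differed by -0.56 between the probes (exact two-sided permutation test, p = 0.2). That test cannot reach 0.05 with 3 arrays against 3, as its smallest p is 0.1, so it does not decide whether the probes differ. Serum alone left Smad3 at a log2 difference of -0.06 on the lead probe, with a 95% interval from -0.40 to 0.28.

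**Figure D2:**
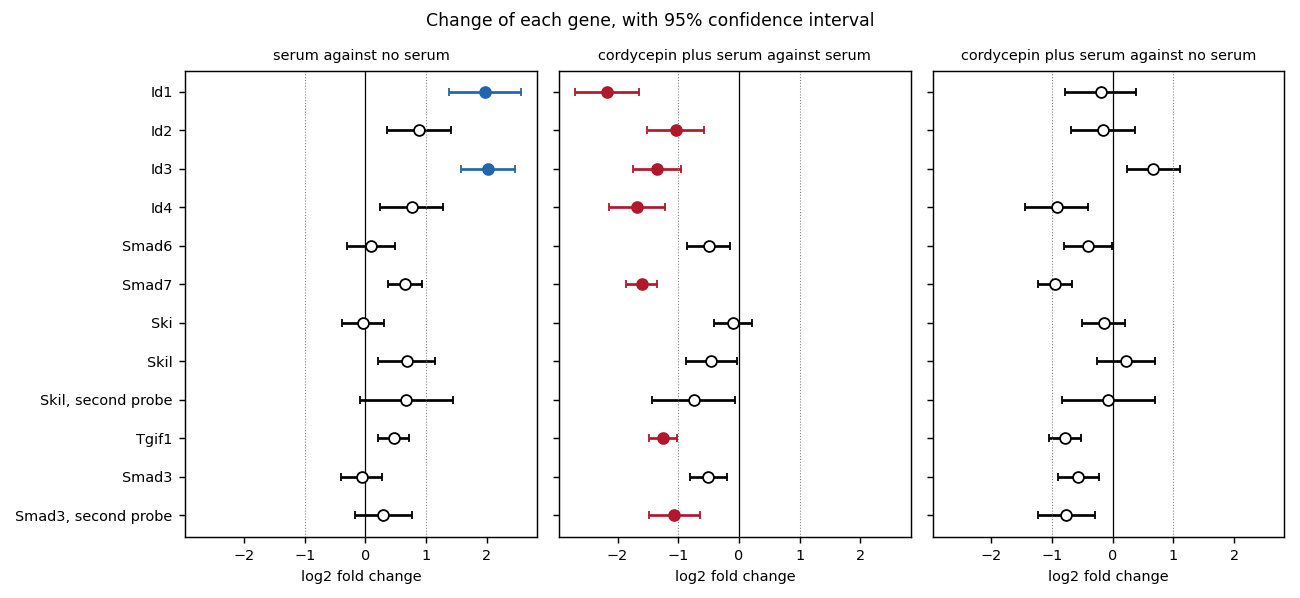
Log2 fold change of each gene with its 95% confidence interval in the 3 comparisons, with both probes for Skil and Smad3. Filled points were called (blue higher, red lower, adjusted p under 0.05 and log2 change of at least 1 in size, dotted lines). Id1 and Id3 are called higher with serum, 6 genes and the other Smad3 probe are called lower with cordycepin, and no probe is called against no serum.

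Serum alone raised some of these genes and none was called lower with it. After 30 min of serum 2 of 10 genes were called higher (Id1 and Id3) and 0 lower, where 0.878% of tested probes were called higher and 0.898% lower (271 and 277 probes, 46 and 137 with spike-in centring, 162 and 131 without the first no serum array, 137 and 122 without the second, and 400 and 606 by unadjusted p). Both calls were lost with spike-in centring, at log2 changes of 1.61 for Id1 and 1.66 for Id3 and limma adjusted p of 0.378 and 0.323. The SE was then 0.59 for each, against 0.26 and 0.19 with the percentile. By adjusted p alone Smad7 was added, making 3 of 10 against 1.17% of probes. In 7 of 10 genes every serum array lay above every no serum array, as in 9.95% of tested probes, and the median log2 change was 0.66 against -0.01 over all probes. Whether the serum response differed between the genes was not tested.

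**Figure D3:**
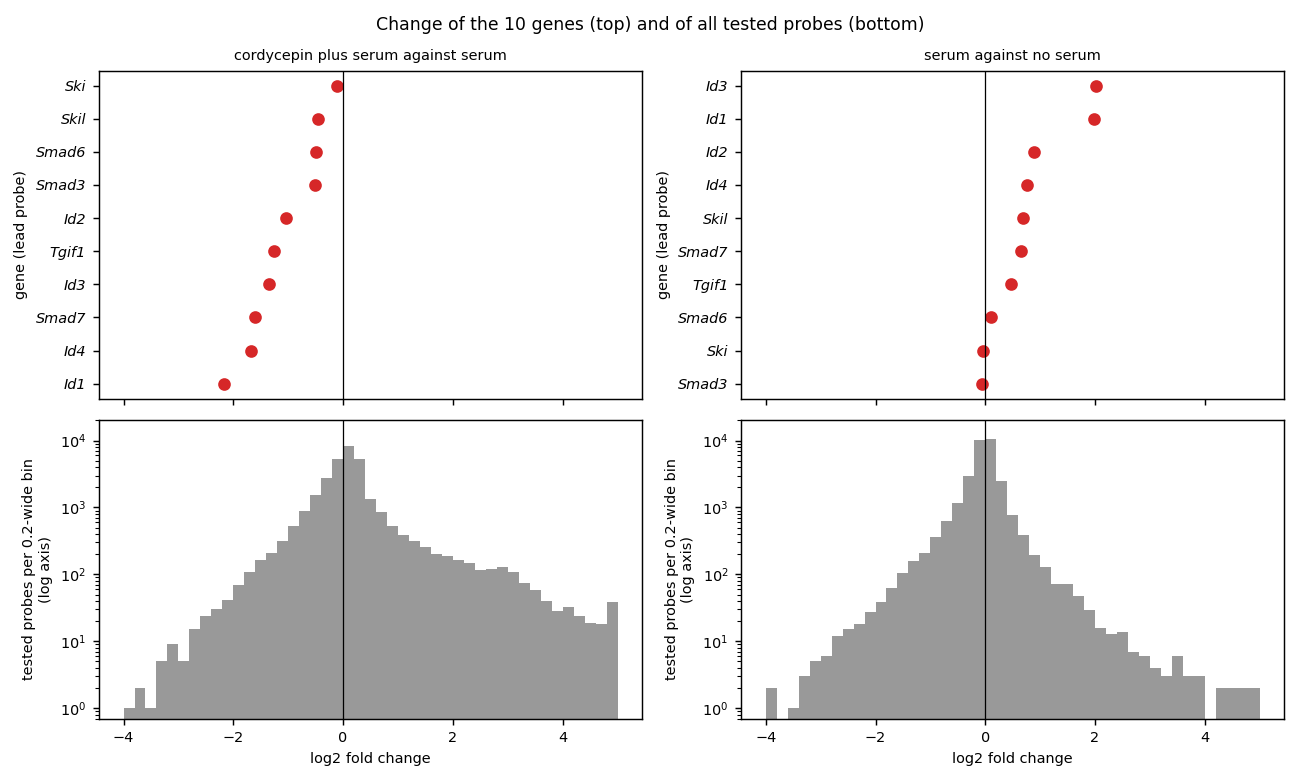
Log2 fold change of the 10 genes (top, lead probe) above the distribution over the 30859 tested probes (bottom, number of probes in bins of width 0.2 on a log axis, with values beyond 5 in size pooled in the end bins), for cordycepin plus serum against serum and for serum against no serum. All 10 genes lie below 0 on the left, with a median of -1.15, and 8 lie above 0 on the right.

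Set against unstimulated cells, none of the 10 genes was called in either direction with cordycepin plus serum by limma (0 higher and 0 lower, also 0 at an unadjusted p under 0.05 with the same minimum fold, but 1 in 3 of the 8 fits that leave out 1 array), where 6.46% of tested probes were called higher and 3.08% lower. By adjusted p alone Smad7, Tgif1, Id4 and Smad3 were lower, 4 of 10 against 6.15% of probes, with log2 differences of -0.96, -0.79, -0.92 and -0.57. Smad7 was called lower without the second cordycepin array (-1.02) or the first no serum array (-1.01), and Id4 without the second no serum array (-1.15). The Smad3 difference had a limma adjusted p of 0.0357. In 5 of 10 genes every cordycepin array lay below every no serum array, as in 16.5% of tested probes, and in 1, Id3, every cordycepin array lay above, as in 27.8%. Id1 and Id2 had differences of -0.20 and -0.16 with intervals that include 0.

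Smad7 and Tgif1 had almost the same pattern. Across the 8 arrays their log2 levels correlated with r = 0.998, and each was the closest gene to the other among 16730 RefSeq mRNA probes above background on all arrays. The next closest to both were Prx (r = 0.997 with Smad7) and B3gnt2 (r = 0.996 with both). The 8 points share 3 groups, and the arrays of a group lie together. The genes closest to Id1 were Topors (r = 0.997), Plau (r = 0.994), the urokinase plasminogen activator, and Hbegf (r = 0.992), a ligand of the EGF receptor. The closest to Id2 were the cyclin L genes Ccnl2 (r = 0.971) and Ccnl1 (r = 0.965), and then Rnf34 (r = 0.949). Those closest to Id3 were Tmem41b (r = 0.984), Rhoh (r = 0.983) and Gm5797 (r = 0.982), and those closest to Id4 were Gfra4 (r = 0.993), Parp8 (r = 0.986) and Irf3 (r = 0.983). None of these genes was listed for more than 1 Id gene, but only the 3 closest were kept for each. The 4 Id genes correlated with each other at r from 0.617 (Id3 and Id4) to 0.896 (Id1 and Id3). A correlation takes no account of the size of a change. Within the set, Id3 and Smad7 correlated at r = 0.618, as the cordycepin arrays were above the no serum arrays for Id3 and below them for Smad7.

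**Figure D4:**
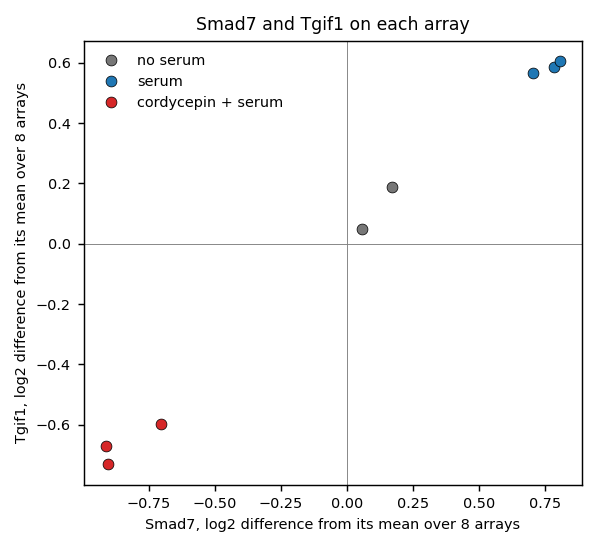
Log2 level of Smad7 (x axis) and Tgif1 (y axis) on each of the 8 arrays, as the difference from the mean of that gene over all arrays, with no serum in grey, serum in blue and cordycepin plus serum in red. The arrays fall into the 3 groups along a line (r = 0.998), with cordycepin plus serum lowest for both genes.

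A list of 61 other gene names of TGF-beta and BMP signalling had 60 on the array and 51 tested (Ctgf, listed also under its newer name Ccn2, is on the array as Ctgf). With cordycepin, 3 of the 51 were called lower and 1 higher, beside the 2.99% and 7.56% of all probes given above, from which nothing is read about the list, and the median log2 change was -0.09. The 1 higher, Gdf15, passed the filter on background only through the cordycepin arrays, so its call is no support for a rise. With serum 2 were called higher and 0 lower, where 0.878% and 0.898% of all probes were. None of 11 receptors, 5 signalling Smads, 10 extracellular inhibitors, 8 intracellular regulators and 3 bHLH partners of the Id proteins was called in any comparison. By adjusted p alone 2 more were lower with cordycepin, the target gene Bhlhe40 (log2 change -0.97, limma adjusted p = 0.0322) and the intracellular regulator Tgif2, the relative of Tgif1 (log2 change -0.91, limma adjusted p = 0.0156). The 11 receptors had log2 changes with cordycepin from -0.34 to 0.28, the 5 signalling Smads (Smad1, Smad2, Smad4, Smad5 and Smad9) from -0.40 to 0.07, and the 3 bHLH partners Tcf3, Tcf4 and Tcf12 from -0.03 to 0.14.

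**Figure D5:**
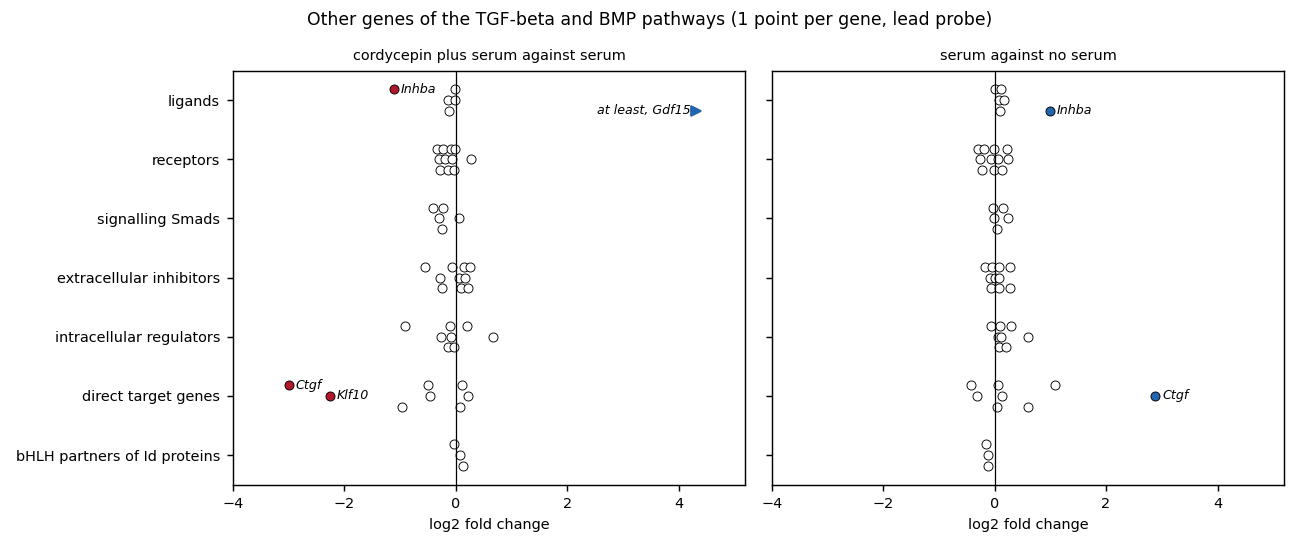
Log2 fold change of 51 other genes of TGF-beta and BMP signalling by role, 1 point per gene, for cordycepin plus serum against serum and for serum against no serum. Filled points were called (blue higher, red lower). The triangle for Gdf15, labelled at least, is a bound (20.0-fold) set by the lowest signal above background of any probe on each array. This gene passed the filter only through the cordycepin arrays. The genes with filled points are ligands and direct target genes.

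With cordycepin, the direct targets Ctgf and Klf10 (of 8 tested) and the ligand Inhba (of 6) were called lower, where 2.99% of all probes were. The ligand Gdf15 was well above background only on the cordycepin arrays. With serum, Ctgf and Inhba were called higher, where 0.878% of all probes were. Ctgf, a matricellular protein, had levels of 7.45, 7.39 and 6.65 with serum, 4.48, 4.75 and 3.29 with cordycepin plus serum, and 3.68 and 4.88 without serum. The serum arrays stood well above the others. It rose 7.39-fold with serum (limma adjusted p = 0.0261) and was 7.95-fold lower with cordycepin (limma adjusted p = 0.00199). Klf10, the TGF-beta-inducible early gene, had levels of 3.86, 4.06 and 3.45 with serum, 1.79, 1.75 and 1.07 with cordycepin plus serum, and 2.60 and 2.82 without serum. It was 4.77-fold lower with cordycepin (limma adjusted p = 0.00028), and it was called lower than without serum too, 2.26-fold (limma adjusted p = 0.0177). Its serum response, 1.08 on the log2 scale, had a limma adjusted p of 0.092. Klf10 therefore had the same order of groups as Smad7, Tgif1 and Id4, with serum highest and cordycepin plus serum lowest.

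The ligand Inhba, the activin A subunit, had levels of 3.04, 3.17 and 2.76 with serum, 2.19, 1.82 and 1.64 with cordycepin plus serum, and 1.98 and 2.00 without serum. It rose 2.00-fold with serum (log2 change 1.00, limma adjusted p = 0.0376), only just at the minimum fold, and was 2.16-fold lower with cordycepin (limma adjusted p = 0.00222). Gdf15, a distant ligand of the family known as a stress-induced cytokine, passed the filter only through the cordycepin arrays. It was well above background on all 3 cordycepin arrays, at -0.60, -1.05 and -1.22, and not well above background on any of the other 5. With the lowest signal above background of any probe on each array as a floor, the bound was 20.0-fold against serum alone and 23.9-fold against no serum. This floor is not the detection limit of the Gdf15 probe, so the bounds only describe these arrays. Gdf15 was tested only through the group where it is high, so no p is given.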

How the data were processed

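RNA of 8 samples was hybridised to 1-colour Agilent mouse arrays. The deposited files hold linear spot intensity from the scanner, which the authors extracted with Feature Extraction 10.7.3.1, including a background and spatial correction. The study names limma for the arrays. Here log2 of the processed signal was taken, control spots and outlier spots were dropped, spots of a probe were averaged, and the 75th percentile over the probes of each array was subtracted. The 30859 probes that exceeded background on all arrays of any group were tested with limma 3.58.1 (R 4.3.3) in a single fit to the 8 arrays, with a mean for each group and no covariate, and the calculation was tested on simulated data. The lead probe is the one with the highest mean over the arrays. Named were all 10 genes, called genes of the pathway list, and the 3 most correlated genes of each called gene. Probe positions are mm9 as deposited, and promoters are GRCm38.p6. One gene of the pathway list is not reported here and is left out of its counts. The number of arrays limits the precision. The genes, lists and tests were chosen with earlier results of these data known. Alternatives were normexp background correction, quantile normalisation, spike-in centring, no filter on dim probes, no minimum fold, unadjusted p, only the groups compared, blocks for replicate number and array row, the mean of the probes of a gene, and leaving out each array.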

Additional observations from a re-analysis of the deposited data

How the results depend on the processing

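The 6 genes called lower with cordycepin in serum were called under normexp background correction, quantile normalisation, no filter on dim probes, no minimum fold (with Smad3 added), unadjusted p, only the groups compared, both blocks and the mean of the probes of a gene. Centring on the spike-in probes left 3 of them (Id1, Id4 and Smad7), and leaving out 1 array left 5 to 6 (Id2 was lost without the first cordycepin or the first serum array). Of the genes called higher with serum, spike-in centring left 0, and leaving out 1 array 1 to 2 (Id1 was lost without the first no serum array). Against no serum, 4 were lower with no minimum fold, 1 (Id4) with the replicate number as a block, and 0 to 1 when 1 array was left out (Smad7 without the second cordycepin or the first no serum array, Id4 without the second no serum array); the cause was not tested. Deviations of same-numbered arrays from their group means correlated from -0.175 to 0.227. With 2 or 3 arrays in a group these deviations are tied to each other, so they cannot decide whether replicate numbers pair the arrays. The replicate block changed no other count. Spike-in centring rests on 7 probes and moved the median of all probes to -0.38 for serum and to -0.33 for cordycepin plus serum against no serum.

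Of 642 alternative values, 17 changed sign, none of a called value. With normexp Ski became 0.0219 against serum, 0.0249 against no serum and 0.0030 for the serum response. With spike-in centring the serum responses of the other Smad3 probe and of Smad6 became -0.068 and -0.27, and Skil against no serum became -0.19. The other Skil probe against no serum became 0.076 with normexp and 0.054 with the replicate block, and the serum response of Smad3 became 0.12 with the mean of its probes. Leaving out 1 array gave, against no serum, -0.32 to 0.062 for Id2, -0.34 to 0.037 for Ski and -0.32 to 0.17 for the other Skil probe, and for the serum response -0.23 to 0.14 for Ski, -0.19 to 0.071 for Smad3 and -0.12 to 0.31 for Smad6. Over all probes, normexp called 891 higher and 408 lower with cordycepin in serum (2333 and 922 in the report), 174 and 58 with serum (271 and 277) and 1036 and 349 against no serum (1994 and 949). Spike-in centring called 1509 and 380, 46 and 137, and 775 and 572 in the same order, no filter on dim probes 135 and 91 with serum, and no minimum fold 3614 and 2379 with cordycepin in serum.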

Other observations

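Probes of other transcripts within 20000 bases of a lead probe were looked up, and 2 of these 5 were singled out after their values were seen. TC1654523, a transcript cluster 1542 bases downstream of the Id4 probe on the same strand (chr13:48360210-48360269, mm9), had levels of -3.71, -4.18 and -3.37 with cordycepin plus serum, -5.12, -5.43 and -5.08 with serum, and -5.88 and -6.01 without serum. The cordycepin arrays were the highest, whereas those of Id4 were the lowest. It was above background on 3 of 3 cordycepin arrays, 2 of 3 serum arrays and 0 of 2 arrays without serum. The difference from no serum is therefore given as a bound from the same floor as for Gdf15, 3.44-fold. As it was tested only through the group where it is high, no p is given. C230073G13Rik, on the strand opposite to Tgif1 and 12609 bases upstream of its probe (chr17:71206238-71206297, mm9), had levels of -2.20, -2.95 and -2.97 with cordycepin plus serum, -4.35, -4.05 and -4.39 with serum, and -2.72 and -2.58 without serum. Its serum arrays were the lowest, where those of Tgif1 were the highest, and its cordycepin and no serum arrays overlapped. It fell with serum (log2 change -1.61, limma adjusted p = 0.0146) and was higher with cordycepin in serum (1.56, limma adjusted p = 0.00136), at a difference of -0.05 from no serum (limma adjusted p = 0.916). Where the transcript of either probe starts and ends was not measured.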
